A study of Mus musculus with 2 samples.

Results

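The genes described here are 10 immediate early genes of the mouse: Egr1, Egr2, Egr3, Nr4a1, Nr4a2, Ier2, Ier3, Ier5, Dusp1 and Zfp36. They were taken as the probe sets whose platform annotation names exactly 1 gene, that gene being one of the 10, and all 10 were measured, out of 19935 genes in all. Each was read by 1 probe set. They were compared between a pair of populations sorted by flow cytometry from the bone marrow of ddY mice aged 6 weeks, an outbred stock. The first group had high surface RANK, through which the osteoclast-inducing cytokine RANKL acts, and low c-Fms, through which M-CSF acts (RANKhigh c-Fmslow, called RANKhigh cells below). The second had low RANK and high c-Fms (RANKlow c-Fmshigh, called c-Fmshigh cells). The mice of both groups carried no stated genetic change and received no stated treatment, and both sorts started from mononuclear marrow cells of a density gradient. The number of mice behind each sort is not stated in the labels. RNA of each population was amplified and hybridised to 1 array, so values stand alone: there is no spread between replicates, and no difference was tested or has a p-value.

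Immediate early genes are transcribed within minutes of a signal and need no new protein synthesis for it. Growth factors, adhesion, antigen and cell stress act on them largely through MAP kinases, the serum response factor SRF with its ETS partners, and CREB. Their transcripts are short-lived, and several of their products shut the response down again. In the myeloid lineage EGR1 and EGR2 are known for favouring the macrophage over the neutrophil programme, and NR4A1 for its requirement in Ly6Clow monocytes. M-CSF and RANKL are both known to activate MAP kinases in osteoclast precursors.

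The difference of a gene is its log2 intensity on the RANKhigh array minus that on the c-Fmshigh array, so that a positive value means higher in RANKhigh cells. The sort receptors were read first. Csf1r, the c-Fms gene, had an intensity of 164 in RANKhigh cells and 821 in c-Fmshigh cells. Tnfrsf11a, the RANK gene, had 104 in RANKhigh cells and 119 in c-Fmshigh cells, a difference of -0.20, so that RANKhigh is the name of a sort gate and not of a higher transcript. As a guide to background, the 95th percentile of 1189 olfactory and vomeronasal receptor genes was 83.8 in RANKhigh cells and 81.8 in c-Fmshigh cells. All 10 immediate early genes lay above it on both arrays.

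The promoters are shown first, because promoters of this kind can hold the sites at which SRF and CREB are known to act, and because the genes that were higher in RANKhigh cells can be set beside one that was not. RefSeq promoters of the GRCm38.p6 build matched 7 of the 10 members by symbol, all but Egr1, Egr3 and Ier2. The 250 bases before the start of transcription are printed 5′ to 3′ on the strand of the gene. Shown are Ier3, Egr2, Ier5 and Dusp1, which had the largest positive differences among the 7, and Zfp36, which was chosen after its values were seen because its difference was the smallest. Capitals mark matches, on either strand, to 6 motifs.
Ier3 (chr17:35821463-35821712, plus strand): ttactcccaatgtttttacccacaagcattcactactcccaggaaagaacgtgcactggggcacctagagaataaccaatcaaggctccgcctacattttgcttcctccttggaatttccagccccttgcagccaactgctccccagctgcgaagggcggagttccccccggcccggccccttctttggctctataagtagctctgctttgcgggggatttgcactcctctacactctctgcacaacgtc
Egr2 (chr10:67537619-67537868, plus strand): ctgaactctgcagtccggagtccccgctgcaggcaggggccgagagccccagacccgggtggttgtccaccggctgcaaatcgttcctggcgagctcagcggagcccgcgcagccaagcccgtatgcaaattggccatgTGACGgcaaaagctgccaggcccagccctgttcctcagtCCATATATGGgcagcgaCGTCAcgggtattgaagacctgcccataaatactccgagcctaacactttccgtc
Ier5 (chr1:155099637-155099886, minus strand): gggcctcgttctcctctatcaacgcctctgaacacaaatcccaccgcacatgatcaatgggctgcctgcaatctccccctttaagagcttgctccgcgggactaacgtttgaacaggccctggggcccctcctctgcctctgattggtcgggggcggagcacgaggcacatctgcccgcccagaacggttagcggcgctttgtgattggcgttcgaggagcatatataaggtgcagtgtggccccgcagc
Dusp1 (chr17:26508473-26508722, minus strand): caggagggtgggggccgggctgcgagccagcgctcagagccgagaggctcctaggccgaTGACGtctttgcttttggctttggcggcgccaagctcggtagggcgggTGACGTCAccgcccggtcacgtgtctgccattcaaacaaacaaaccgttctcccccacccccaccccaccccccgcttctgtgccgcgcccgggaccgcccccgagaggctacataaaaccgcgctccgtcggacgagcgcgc
Zfp36 (chr7:28379229-28379478, minus strand): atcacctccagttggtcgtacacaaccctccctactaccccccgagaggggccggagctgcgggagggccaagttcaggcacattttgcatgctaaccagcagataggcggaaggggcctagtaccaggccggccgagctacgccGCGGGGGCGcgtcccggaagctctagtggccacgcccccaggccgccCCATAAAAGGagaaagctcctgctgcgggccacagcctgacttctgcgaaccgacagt

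The motifs searched were the CArG box, to which SRF binds, the full cAMP response element TGACGTCA, its core TGACG, the AP-1 site TGANTCA, the EGR site GCGNGGGCG and the TATA box TATAAA. The core is contained in the full element, so that a full element is counted under both. Among all 32851 RefSeq promoter windows of 250 bases, 1.47% held a CArG box, 1.55% the full cAMP response element, 17.8% its core, 6.75% an AP-1 site, 4.70% an EGR site and 12.4% the TATA letters. Egr2 held a CArG box 72 to 63 bases before the start shown, with a cAMP response core on either side of it. RefSeq gives 5 starts for Egr2. The window shown is the most upstream of 3 that overlap, and 4 of the 5 windows held a CArG box. Dusp1 held a full cAMP response element 143 to 136 bases before its start and a further core upstream of it. Zfp36 held a CArG box 58 to 49 bases before its start and an EGR site 105 to 97 bases before it. The windows of Ier3 and Ier5 held none of the 6 motifs in the forms searched. TATA boxes with letters other than TATAAA were not searched for. The windows of Nr4a1 and Nr4a2, not printed, held 4 cAMP response cores and 1 EGR site each. That of Nr4a2 also held the TATA letters, on the strand opposite to the gene, 164 to 159 bases before its start. A match is a description of the letters. CArG boxes stood both before a gene that was higher in RANKhigh cells (Egr2) and before one that was close to equal (Zfp36).

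Egr1 and Ier3 were at least 2-fold higher in RANKhigh cells, and none of the 10 genes was at least 2-fold lower. With 32 added to each intensity before the logarithm, 1 member remained above 2-fold, since the difference of Ier3 was then 0.94. Counts use the 11089 genes with an intensity of 93.6 or more on at least 1 array, which is the median over all probe sets of the 2 arrays, and all 10 members passed this filter. Of those 11089 genes, 4.34% were higher by 2-fold or more in RANKhigh cells, beside 2 of 10 members (20%). Lower by as much were 4.26% of the genes and 0 of 10 members. At 1.5-fold, 4 of 10 members were higher (40%) and 0 were lower, where 10.5% of the 11089 genes were higher and 12.4% lower. The 10 differences ran from -0.17 to 1.35, with a median of 0.39, against a median of -0.01 over the 11089 genes and of 0.01 over all 19935. Of the 10, 6 lay above 0 and 4 below. In sorted cells taken in bulk, fewer cells of a type and less RNA per cell cannot be told apart.

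**Figure D1:**
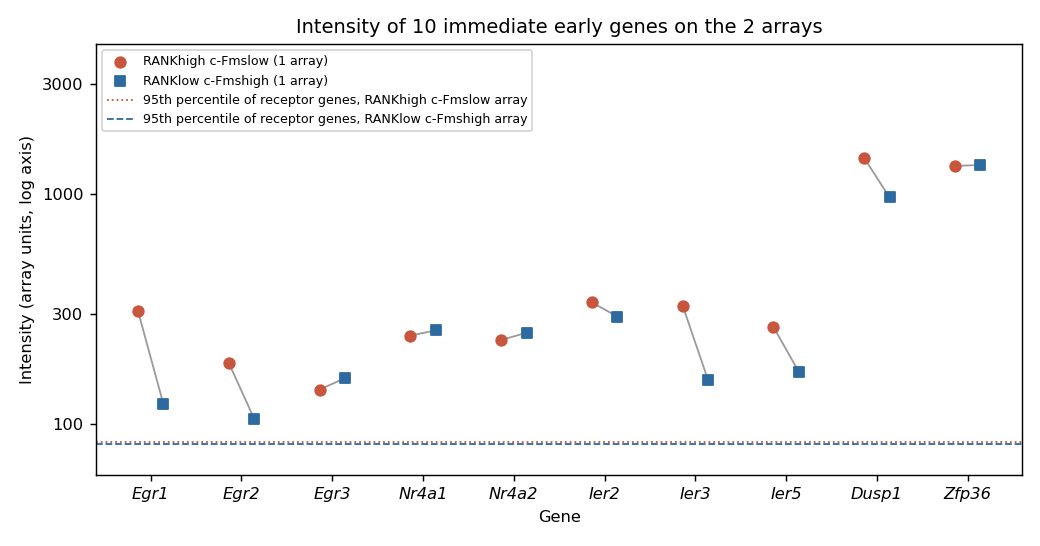
Intensity of each gene (vertical log axis, array units) in RANKhigh cells (circles) and c-Fmshigh cells (squares), 1 array each with no error bar, joined by a line. Horizontal lines mark, for each array, the receptor genes' 95th percentile (83.8 in RANKhigh and 81.8 in c-Fmshigh cells). The lines of Egr1 and Ier3 slope most steeply, whereas those of Nr4a1, Nr4a2 and Zfp36 are nearly flat.

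How far probe sets of 1 gene disagree within these arrays gives a rough scale for such differences, though not a replicate error. For 509 genes of which exactly 2 probe sets passed the level filter, the log2 differences of the pair lay 0.19 apart at the median and 0.66 apart at the 90th percentile. The differences of Egr1, Ier3 and Egr2 exceeded the larger gap in size. Those of Ier5, Dusp1 and Ier2 lay between the 2 gaps, and those of Egr3, Nr4a1, Nr4a2 and Zfp36 lay within the median gap.

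The EGR genes encode zinc finger transcription factors that bind a common GC-rich site and are restrained by the NAB corepressors. Egr1, the prototype of the family and a standard readout of MAP kinase activity, had an intensity of 309 in RANKhigh cells and 122 in c-Fmshigh cells. It was 2.54-fold higher in the RANKhigh population, a difference of 1.35, and 262 of the 11089 genes had a larger positive one (2.36%). Egr2, known in macrophages, lymphocytes and Schwann cells, had 184 in RANKhigh cells and 105 in c-Fmshigh cells, 1.75-fold higher with a difference of 0.81. Egr3, which acts with Egr2 in lymphocytes, had 141 in RANKhigh cells and 158 in c-Fmshigh cells, a difference of -0.17. Egr4, the remaining EGR gene, was below the receptor genes on both arrays. Egr1, Egr2 and Egr3 therefore did not differ as a block. Egr1 and Egr2 were both higher in RANKhigh cells, by differences 1.51 and 0.97 above that of Egr3.

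The genes whose pair of intensities lay closest to that of Egr1 were sought by Euclidean distance over the log2 values of the 2 arrays. They were Chst3, a chondroitin sulfotransferase gene, at a distance of 0.01 (308 in RANKhigh and 123 in c-Fmshigh cells), Abcg4, a sterol transporter gene, at 0.04 (303 in RANKhigh and 120 in c-Fmshigh cells) and Slfn4, a Schlafen gene of myeloid cells, at 0.06 (322 in RANKhigh and 123 in c-Fmshigh cells). With 2 arrays, this likeness covers a level and 1 difference only.

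NR4A1 and NR4A2 are orphan nuclear receptors that act without a known activating hormone and depend mainly on how much of them is made. Nr4a1, which encodes Nur77, had an intensity of 242 in RANKhigh cells and 255 in c-Fmshigh cells, a difference of -0.08. Nr4a2, which encodes Nurr1, had 232 in RANKhigh cells and 249 in c-Fmshigh cells, a difference of -0.11. Both genes were nearly level between the populations and their differences lay 0.03 apart. Nr4a3, the remaining NR4A gene, was below the receptor genes on both arrays.

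Genes of Ly6Clow monocytes, for which NR4A1 is required, were read beside Nr4a1. Of 10 measured, 8 were within 2-fold, 1 was higher in RANKhigh cells by more and 1 was lower by more, and the median difference was -0.59. Cx3cr1, the fractalkine receptor gene, had 276 in RANKhigh cells and 819 in c-Fmshigh cells. Cd36, a scavenger receptor gene that erythroid cells and platelets also use, had 570 in RANKhigh cells and 267 in c-Fmshigh cells. The 6 measured genes of Ly6Chigh monocytes had a median of -2.08, and 5 of them were lower in RANKhigh cells by at least 2-fold. Ccr2, F13a1 and Fn1 of this list are also monocyte markers below. Among the 5 were F13a1, the factor XIII A subunit gene (517 in RANKhigh and 4177 in c-Fmshigh cells), and Vcan, which encodes versican (144 in RANKhigh and 561 in c-Fmshigh cells).

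The IER genes are named for their rapid induction and are not all of 1 protein family. Ier3, also known as IEX-1, encodes a small protein that affects cell survival and ERK signalling. It had an intensity of 327 in RANKhigh cells and 155 in c-Fmshigh cells, 2.11-fold higher with a difference of 1.08, and 3.81% of the 11089 genes had a larger positive one. Ier5, which encodes a regulator of heat shock factor and phosphatase activity, had 264 in RANKhigh cells and 168 in c-Fmshigh cells, 1.57-fold higher with a difference of 0.65. Ier2, which encodes a nuclear protein related to IER5, had 338 in RANKhigh cells and 293 in c-Fmshigh cells, a difference of 0.20. All 3 were on the same side of 0, and Ier3 stood 0.87 above Ier2.

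Dusp1 and Zfp36 encode proteins that end the response. DUSP1 (MKP-1) removes phosphate from p38, JNK and ERK. ZFP36 (tristetraprolin) binds AU-rich elements and brings transcripts of cytokines and of immediate early genes to decay. Dusp1 had an intensity of 1436 in RANKhigh cells and 966 in c-Fmshigh cells, 1.49-fold higher with a difference of 0.57. Zfp36 had 1327 in RANKhigh cells and 1337 in c-Fmshigh cells, a difference of -0.01 that became 0.15 after quantile normalization of the 2 arrays. Of the 11089 genes, 49.9% had a larger difference than Zfp36 and 50.1% a smaller one, whereas 10.8% had a larger one than Dusp1.

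**Figure D2:**
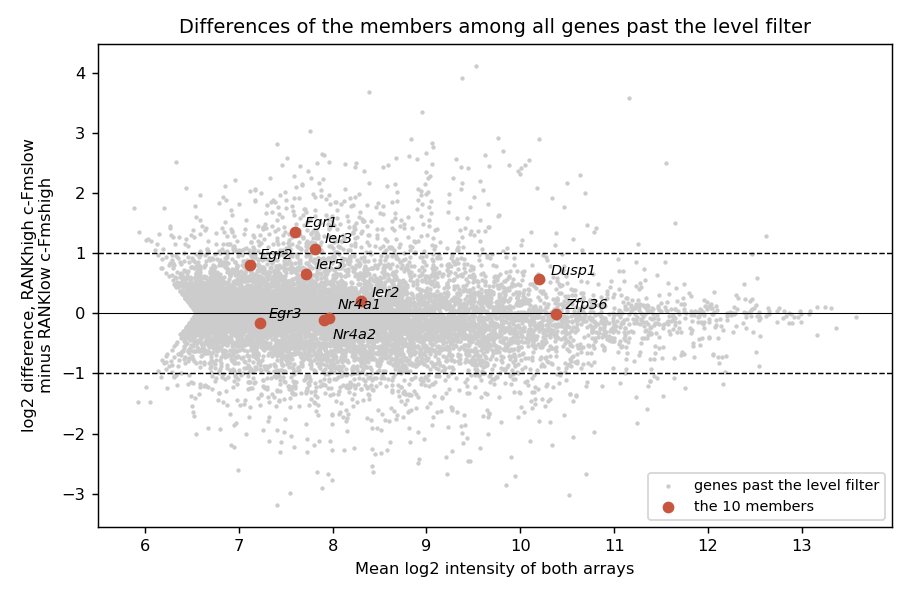
Difference of each gene past the level filter (vertical axis, log2 intensity in RANKhigh minus c-Fmshigh cells) against its mean log2 intensity over both arrays (horizontal axis). Grey points are all 11089 genes, labelled points are the 10 members, and dashed lines mark 2-fold. Egr1 (1.35) and Ier3 (1.08) lie above the upper line, and no member lies below -0.17.

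The other immediate early genes differed in both directions. Their median was 0.16 over 30 measured genes, of which 4 were higher in RANKhigh cells by at least 2-fold, 1 was lower by as much and 25 were within 2-fold. Over the 26 that passed the level filter, as all 10 members did, the median was 0.33, against 0.39 for the members. The activation antigen gene Cd69 had 924 in RANKhigh cells and 252 in c-Fmshigh cells (3.67-fold higher). Ppp1r15a, which encodes the GADD34 phosphatase subunit, had 863 in RANKhigh cells and 314 in c-Fmshigh cells (2.75-fold higher). Trib1, a pseudokinase gene, was 2.21-fold higher at 436 in RANKhigh cells against 198 in c-Fmshigh cells, and the AP-1 gene Fosb was 2.02-fold higher at 464 in RANKhigh cells against 230 in c-Fmshigh cells. Among the AP-1 genes that the 10 members leave out, Fos had 203 in RANKhigh cells and 255 in c-Fmshigh cells, Jun had 699 in RANKhigh cells and 518 in c-Fmshigh cells, and Atf3 had 454 in RANKhigh cells and 1052 in c-Fmshigh cells (2.32-fold lower).

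Upstream of these genes the MAP kinase cascade lay on the other side of 0. The list has 24 genes, of which 15 were analysed here. Of these 15, 14 had a difference below 0, with a median of -0.51, and 1 of them was at least 2-fold lower in RANKhigh cells. This was Mapkapk3, a kinase gene downstream of p38, at 172 in RANKhigh cells and 420 in c-Fmshigh cells (2.45-fold lower). Map2k6, which encodes an activator of p38, had 140 in RANKhigh cells and 262 in c-Fmshigh cells, and Rps6ka3, which encodes the ERK target RSK2, had 586 in RANKhigh cells and 1070 in c-Fmshigh cells. The exception was Map2k2, which encodes MEK2, at 220 in RANKhigh cells and 128 in c-Fmshigh cells. These are levels of transcripts, and kinase activity was not measured.

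Transcription regulators of immediate early genes and the NAB corepressors had a median of 0.02 over 11 measured genes. The CREB coactivator gene Crtc2 was 2.18-fold higher in RANKhigh cells (803 against 368 in c-Fmshigh cells), and 0 genes were at least 2-fold lower. Nab1, a corepressor of EGR proteins, had 219 in RANKhigh cells and 354 in c-Fmshigh cells, and Creb1 had 779 in RANKhigh cells and 1191 in c-Fmshigh cells. Nab2, itself a known EGR target, had 129 in RANKhigh cells and 127 in c-Fmshigh cells, and Srf had 148 in RANKhigh cells and 112 in c-Fmshigh cells. Nab2 and Srf were named after their values were seen.

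Relatives of Dusp1 and other inhibitors of MAP kinase signalling had a median of 0.17 over 16 measured genes, of which 1 was higher in RANKhigh cells by at least 2-fold and 0 were lower by as much. Dusp10, which encodes a phosphatase of p38 and JNK, had 576 in RANKhigh cells and 273 in c-Fmshigh cells (2.11-fold higher). Dusp2, an inducible phosphatase gene of leukocytes, had 238 in RANKhigh cells and 134 in c-Fmshigh cells, and Dusp6, the cytoplasmic ERK phosphatase gene, had 348 in RANKhigh cells and 227 in c-Fmshigh cells. The Sprouty gene Spry2 had 132 in RANKhigh cells and was at least 1.61-fold higher, since its value in c-Fmshigh cells was not above the receptor genes.

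Around Zfp36, genes that bind AU-rich elements or act in transcript decay had a median of -0.13 over 15 measured, of which 2 were higher in RANKhigh cells by at least 2-fold and 0 were lower by as much. Its paralog Zfp36l1 had 305 in RANKhigh cells and 97.7 in c-Fmshigh cells (3.12-fold higher), whereas Zfp36 itself was level. Cnot3, a subunit of the CCR4-NOT deadenylase, had 864 in RANKhigh cells and 408 in c-Fmshigh cells. Of the 15, 5 lay above 0 and 10 below. Among those below were Tia1 (324 in RANKhigh and 506 in c-Fmshigh cells) and Elavl1 (725 in RANKhigh and 976 in c-Fmshigh cells). The 12 measured transcripts with AU-rich elements that ZFP36 is known to bind had a median of -0.04, with 6 above 0 and 6 below, and the 9 that passed the level filter had a median of -0.13. Il1b was 2.16-fold higher in RANKhigh cells (392 against 182 in c-Fmshigh cells), Ccl4 had 414 in RANKhigh cells and 255 in c-Fmshigh cells, and Tnf had 214 in RANKhigh cells and 314 in c-Fmshigh cells.

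**Figure D3:**
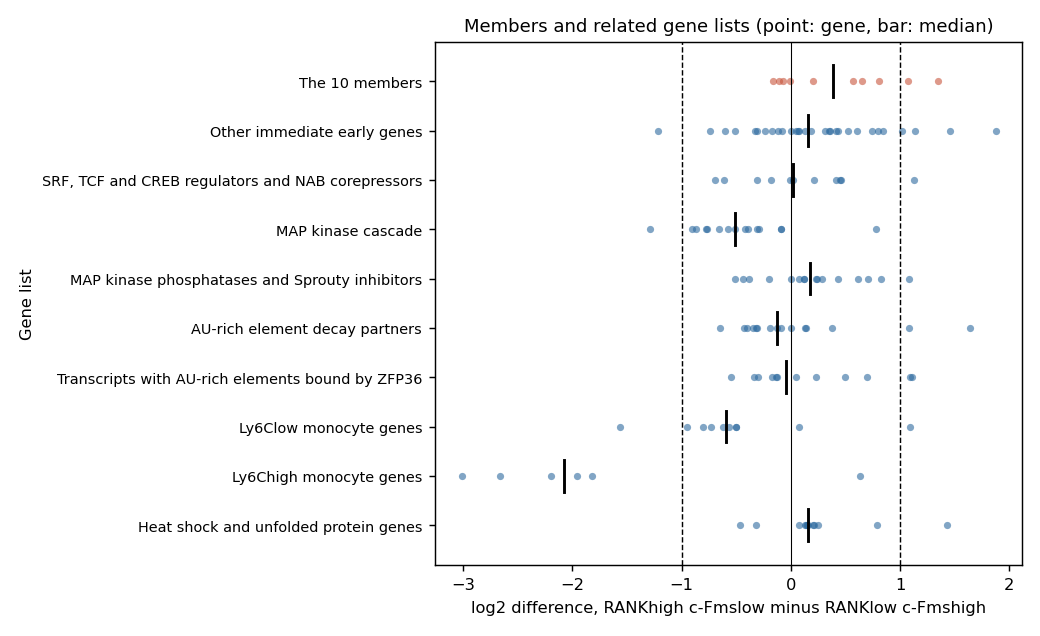
Differences (horizontal axis, log2 intensity in RANKhigh minus c-Fmshigh cells) of the 10 members and of the measured genes of 9 related lists (rows). Points are genes, black bars are medians and dashed lines mark 2-fold. The members' median is 0.39, that of the other immediate early genes 0.16 (0.33 over the 26 past the level filter) and that of the MAP kinase cascade -0.51.

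Genes of the heat shock and unfolded protein responses, listed together with growth arrest genes such as Gadd45a, were read as a guide to cell stress. Their median was 0.16 over 12 measured genes, and 11 of them were within 2-fold. The exception was Gadd45a, a growth arrest gene, at 1324 in RANKhigh cells and 492 in c-Fmshigh cells (2.69-fold higher). Ddit3, which encodes CHOP, had 934 in RANKhigh cells and 541 in c-Fmshigh cells, and the constitutive chaperone gene Hspa8 had 2999 in RANKhigh cells and 3738 in c-Fmshigh cells. Hspa1a, the inducible HSP70 gene, had 146 in RANKhigh cells and 127 in c-Fmshigh cells, and was named after its values were seen.

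Markers of several blood cell types had medians farther from 0 than the immediate early genes. The monocyte list had a median of -1.72 over 10 measured markers, 6 of which were lower in RANKhigh cells by at least 2-fold, and its intensities summed to 7970 in RANKhigh cells against 25730 in c-Fmshigh cells. The neutrophil list had a median of 2.17, with 9 of 12 markers higher by at least 2-fold and a sum of 44217 in RANKhigh cells against 14402 in c-Fmshigh cells. The eosinophil list (median 2.72, 5 of 6 higher by as much) summed to 12178 in RANKhigh cells against 1161 in c-Fmshigh cells, and the basophil and mast cell list (median 1.42, 5 of 8) to 3651 in RANKhigh cells against 1064 in c-Fmshigh cells. Among the 5 eosinophil markers, Il5ra is shown only to be at least 1.21-fold higher. Its value in c-Fmshigh cells was under the 95th percentile of the receptor genes. Early B cell markers (median 1.77, 10 of 11) summed to 12950 in RANKhigh cells against 3638 in c-Fmshigh cells, and mature B cell markers (median 1.94, 7 of 7) to 6278 in RANKhigh cells against 1746 in c-Fmshigh cells. Erythroid markers (median 2.35, 9 of 9) summed to 12777 in RANKhigh cells against 3185 in c-Fmshigh cells.

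Over all measured markers, the lists of other cells had medians nearer to 0. The T cell list had a median of 0.73 (3 of 7 higher by at least 2-fold) and summed to 1757 in RANKhigh cells against 671 in c-Fmshigh cells. The NK cell list had 0.91 (3 of 7) with sums of 1873 in RANKhigh cells and 854 in c-Fmshigh cells. Of its 7 markers, 3 were below the receptor genes on both arrays, and the 4 past the level filter had a median of 1.39. The platelet and megakaryocyte list had 0.69 (1 of 5) with 2102 in RANKhigh cells and 1041 in c-Fmshigh cells. Macrophage markers had a median of 0.01, with 2 of 11 higher and 3 lower by at least 2-fold, and summed to 3025 in RANKhigh cells against 4992 in c-Fmshigh cells. Osteoclast markers had a median of 0.05 (2 of 10 higher) and summed to 1494 in RANKhigh cells against 1005 in c-Fmshigh cells, with 5 of the 10 below the receptor genes on both arrays. Ctsk, Calcr, Dcstamp and Atp6v0d2, defining genes of the mature osteoclast, were among these 5. The 2 higher by at least 2-fold were Acp5, at 546 in RANKhigh cells and 188 in c-Fmshigh cells (2.90-fold), and Mmp9. Mmp9, also in the neutrophil list, had 277 in RANKhigh cells and was at least 3.38-fold higher. Over the 4 osteoclast markers past the level filter the median was 0.83, and 0 of the 10 were at least 2-fold lower. Endothelial and stromal markers had a median of -0.11 and summed to 557 in RANKhigh cells against 595 in c-Fmshigh cells. Of the 8, 5 were below the receptor genes on both arrays. Which cells carried Egr1, Ier3 and the other members, and the part of cell composition in their differences, was not tested. With 1 array of each group, any effect of handling before RNA was taken cannot be told apart from a difference between the populations.

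**Figure D4:**
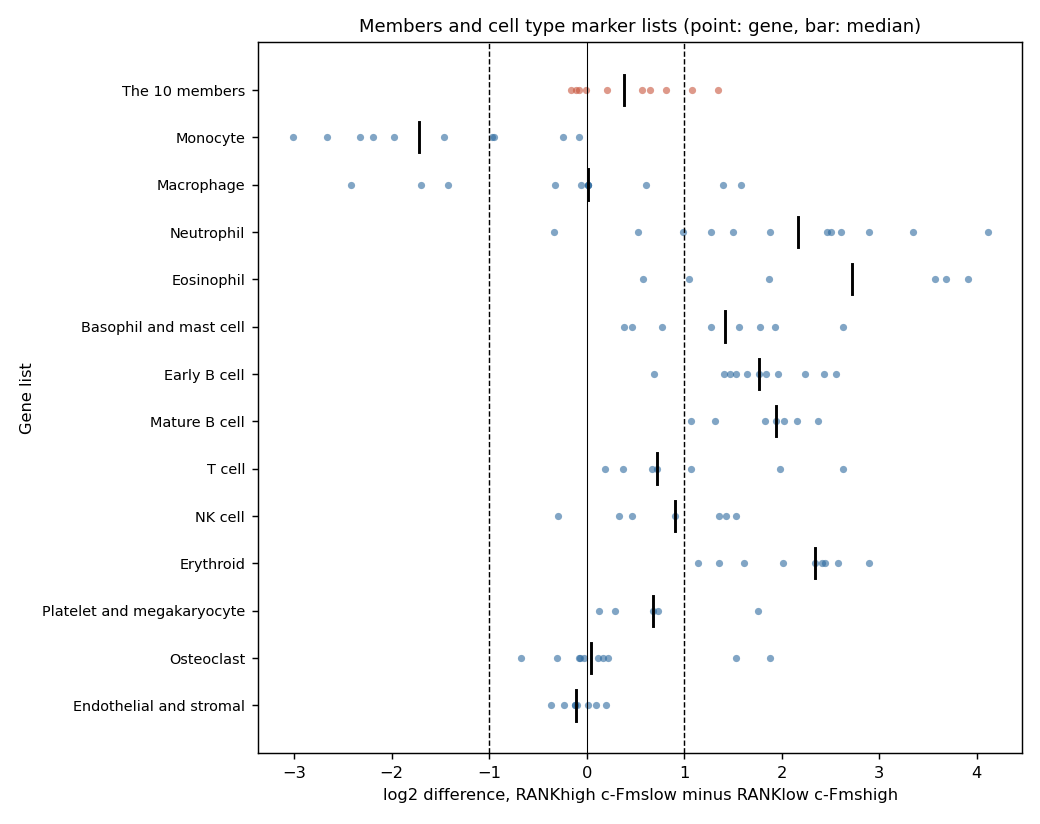
Differences (horizontal axis, log2 intensity in RANKhigh minus c-Fmshigh cells) of the 10 members and of the measured genes of 13 cell type marker lists (rows). Points are genes, black bars are medians and dashed lines mark 2-fold. The monocyte median is -1.72 and the erythroid median 2.35, and the members, at a median of 0.39, lie between them.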

How the data were processed

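Gene expression was measured on single-channel arrays, 1 for each sorted population and 2 in all. The authors deposited an intensity on a linear scale for every probe set. GCOS 1.4 and RMA are named in the submitters' processing notes. What each did, in which order, and how the values came to be linear is not given in the sources used here. Scanner files were not analysed. The RANKhigh c-Fmslow array held values between 19.9 and 13198 (median 94.5), the RANKlow c-Fmshigh array between 20.3 and 13453 (median 92.6).

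Intensities were put on the log2 scale with no offset or rescaling. The platform annotation of 2016 gave a single gene for 21780 of 28815 probe sets, several genes for 1605, which were left out, and did not list 5430. None of the 1605 named a member (0 probe sets). All 10 Entrez identifiers of the members were found in the GRCm38.p6 gene table. Probe sets of a gene were averaged. With 1 array per group no test was run. Genes were counted by size, at 2-fold (1 on the log2 scale). A fold against a value under the receptor percentile is given as a bound. A list's counts and median stand for its test, over measured genes. Among all list entries, measured or not, 6 genes stand in more than 1 list. Levels of different probe sets enter the level filter, the receptor percentile, the search for genes nearest to Egr1 and the summed marker intensities. They were not otherwise compared.

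Named are all 10 members, Fos, Jun and Atf3, the 3 genes nearest to Egr1, and genes taken from the 4 or fewer most different, in absolute size, of every list. Egr4, Nr4a3, Fosb, Nab2, Srf, Hspa1a, Il5ra, the sort receptors and 4 osteoclast genes were named outside this rule, after their values were seen. The members, the 9 related lists, the 13 marker lists and the receptor guide were chosen with earlier results of these data known. The size rule was run on simulated differences of 4-fold, larger than that of any member. That run checks the code and does not measure error at the size of the members' differences. Arrays have no read depth, and their number limits the precision. Python 3.11.15, numpy 2.4.6, pandas 2.3.3 and matplotlib 3.10.9 were used. The alternatives tried were 2 offsets, centring, quantile normalization, other choices of probe sets, other level filters and a 1.5-fold threshold.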

Additional observations from a re-analysis of the deposited data

How the results depend on the processing

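Among the members' differences under 2 offsets and 2 scalings (centring and quantile normalization), 1 value moved by more than 0.19, the median gap between probe sets of 1 gene: Egr1 was 1.15 with an offset of 32. With that offset Ier3 was 0.94, so that 1 member was at least 2-fold higher in RANKhigh c-Fmslow cells in place of 2. At a 1.5-fold threshold 4 members were higher. An offset shrinks differences of low values by construction. Zfp36 was the 1 member whose sign changed, with 0.15 under quantile normalization against -0.01 as deposited, and the same setting put Dusp1 at 0.71. The other 9 kept their sign under both scalings, the only settings that could turn it, since an offset added to both values cannot. The members' median lay between 0.20 and 0.57 when 1 member was left out, and the medians of the 9 related lists moved by less than 0.19 under the offsets and scalings. The choice among probe sets could not change a member, since each has 1, and adding those that name several genes could not either, since 0 of them name a member. No paired analysis was possible because each group has 1 array. The lack of replicate arrays limits every difference.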
